A study of Mus musculus with 28 samples.

Results

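The genes described here are the metallothioneins Mt1, Mt2 and Mt3, the zinc-sensing regulator Mtf1 and the zinc transporters Slc30a1 and Slc39a14. These 6 members were selected by name and were chosen on earlier results of the same counts, in which Mt3 differed between tamoxifen and placebo in opposite directions in WT and in Dnm2 S619L/+ mice. All 6 were present among the 55416 gene identifiers of the Dnm2 cohort and the 55359 of the Bin1 cohort, and all 6 were among the genes that passed the filter on low counts, 15439 and 14841 respectively. Poly(A) RNA of the tibialis anterior (TA) muscle was sequenced from 28 mice of the C57BL/6N strain at 8 weeks of age, in 7 groups of 4. The Dnm2 cohort held WT mice on placebo, WT mice on tamoxifen, and Dnm2 S619L/+ mice on either diet, the latter being heterozygous knock-in mice that carry the point mutation in every tissue. The Bin1 cohort held WT mice on placebo and Bin1 mck-/- mice, which lack Bin1 in muscle only through a Cre driven by the muscle creatine kinase promoter, on placebo or tamoxifen. It held no WT mice on tamoxifen. The sex of the mice is not in the labels. The cohorts also differed in RNA input (300 ng for Dnm2, 350 ng for Bin1) and fragmentation time (2 and 8 min), so mouse model and library protocol cannot be told apart, and each cohort was normalised and tested by itself.

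Metallothioneins are small cysteine-rich proteins that bind zinc, copper and cadmium, and they buffer the zinc of the cytosol and react with oxidants. Their transcription rises when MTF-1, the product of Mtf1, binds zinc and attaches to metal response elements in their promoters, and it also responds to glucocorticoids, oxidative stress and cytokines. Mt1 and Mt2 are expressed in most tissues, whereas Mt3 is best known from the brain and Mt4 from stratified squamous epithelium. SLC30A1 is the exporter that moves zinc out of the cell across the plasma membrane and is itself a classical MTF-1 target, and SLC39A14 is an importer of zinc, iron and manganese that is known from liver and from inflammation.

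The 4 metallothionein genes lie side by side on mouse chromosome 8, in the order Mt4, Mt3, Mt2 and Mt1. The 250 bases before the RefSeq transcription start are shown for the 3 metallothionein members and for Slc30a1. Some annotated transcripts start further downstream, so these windows do not cover the bases just before every start. They are RefSeq sequences on GRCm38.p6, all on the plus strand. Capitals mark the 7-base metal response element core, searched on both strands as TGCACNC and TGCGCNC (on the minus strand the letters read as GNGTGCA and GNGCGCA). The windows are chr8:94178839-94179088 for Mt1, chr8:94172368-94172617 for Mt2, chr8:94152357-94152606 for Mt3 and chr1:191906531-191906780 for Slc30a1.
Mt1: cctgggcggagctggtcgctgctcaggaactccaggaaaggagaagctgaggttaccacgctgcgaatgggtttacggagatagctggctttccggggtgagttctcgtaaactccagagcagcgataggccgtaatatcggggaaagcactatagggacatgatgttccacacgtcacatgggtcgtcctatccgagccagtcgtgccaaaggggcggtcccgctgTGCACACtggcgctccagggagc
Mt2: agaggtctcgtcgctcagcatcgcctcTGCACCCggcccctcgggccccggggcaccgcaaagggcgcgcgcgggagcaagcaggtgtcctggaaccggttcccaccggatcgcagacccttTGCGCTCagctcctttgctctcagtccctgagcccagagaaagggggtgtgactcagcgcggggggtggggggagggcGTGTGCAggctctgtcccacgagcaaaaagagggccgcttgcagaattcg
Mt3: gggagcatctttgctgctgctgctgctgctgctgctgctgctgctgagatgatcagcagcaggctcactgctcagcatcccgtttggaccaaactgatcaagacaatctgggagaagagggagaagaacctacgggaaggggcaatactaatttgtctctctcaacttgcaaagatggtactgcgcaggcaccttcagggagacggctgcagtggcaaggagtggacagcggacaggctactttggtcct
Slc30a1: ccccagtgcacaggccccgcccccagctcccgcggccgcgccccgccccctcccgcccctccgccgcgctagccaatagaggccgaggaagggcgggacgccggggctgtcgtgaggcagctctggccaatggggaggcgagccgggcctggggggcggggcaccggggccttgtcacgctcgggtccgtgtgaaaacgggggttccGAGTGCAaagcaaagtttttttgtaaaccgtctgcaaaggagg

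The Mt2 window held 3 cores, at 223, 128 and 50 bases before the start, the Mt1 window held 1 at 23 bases and the Slc30a1 window 1 at 43 bases. The Mt3 and Mtf1 windows held none. Of all 32851 promoter windows of this length, 21.4% held at least 1 core and 5.17% held 2 or more. Including the 50 bases after the start, which are not printed, added 2 cores to Mt1 and 1 each to Mt2, Mt3 and Slc30a1. In GENCODE, other transcripts of Mt1 start 122 and 152 bases further downstream, and other transcripts of Mt3 start 139 bases further. The Mt2 transcripts start 46 bases (its main one) and 242 bases after the RefSeq start, from which the distances above are counted. The bases before those starts were not searched beyond these windows. The antioxidant response element TGACNNNGC was found once in Mt2 (79 bases before the start) and once in Slc30a1 (82 bases), against 10.2% of all windows. The short glucocorticoid receptor motif AGAACA was found in the Mtf1 window alone among the 5 members with a promoter entry (16.1% of all windows), and a full estrogen response element in none of them (0.0639%). A match is a run of letters and not a bound site. The letters of the Slc39a14 promoter were not available to read.

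Depth on genes ran from 15586333 to 109710886 reads in the Dnm2 cohort and from 24671835 to 35136327 in the Bin1 cohort. Levels are given as CPM, a mouse's count divided by its library total scaled with TMM factors, differences as log2 fold changes ± SE, and a gene passed the test where its adjusted p was under 0.05. The p-values measure the spread between these mice. Bin1 itself fell from 540 ± 15.7 CPM in WT to 56.2 ± 5.10 CPM in Bin1 mck-/- mice (mean ± SD, n = 4), and the Dnm2 mutation is a base change that gene counts do not show. The 8 skeletal muscle markers had a summed level of 103000 to 220000 CPM per mouse. The summed level of bone markers was 508 to 1700 CPM in the tamoxifen WT mice and 54.7 to 1130 CPM in the tamoxifen Dnm2 S619L/+ mice, against 31.5 to 60.0 and 14.4 to 26.6 CPM on placebo. One tamoxifen Bin1 mck-/- mouse, replicate 2, reached 464 CPM against 18.6 to 25.2 CPM in the other 3. In the Dnm2 cohort, Xist was over 10 CPM in 2 of 4 mice in each group except the tamoxifen Dnm2 S619L/+ group, where it was over 10 CPM in 4 of 4. In whole muscle, fewer cells of a type and less RNA per cell cannot be told apart.

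The first question was which of these genes differ between diseased and WT muscle on placebo. In the Dnm2 cohort, Mt1 and Mt2 were higher in Dnm2 S619L/+ mice, while Mtf1, Slc30a1 and Slc39a14 did not pass the test. Mt2 stood at 230, 151, 31.0 and 248 CPM in the 4 Dnm2 S619L/+ mice and at 11.2, 5.91, 10.9 and 2.99 CPM in the 4 WT mice. The groups did not overlap, and even the lowest mutant mouse was above every WT mouse. The mean was 21.3 times the WT mean, with a log2 fold change of 4.42 ± 0.75 (edgeR adjusted p = 0.00104). Mt1 was 156, 111, 30.1 and 144 CPM in the mutants and 21.9, 13.1, 21 and 13.4 CPM in WT. Again the groups did not overlap, and the log2 fold change was 2.67 ± 0.61 (edgeR adjusted p = 0.00700). Of the 5 members tested, 2 passed as higher and 0 as lower, while 12.1% of all genes passed as higher and 9.81% as lower. The median over these 5 was 0.55, against 0.02 over all genes. By another tool, DESeq2, the same 2 members passed. In the mice with Xist over 10 CPM alone, Mt1 lost its call (3.10, edgeR adjusted p = 0.0969) and Mt2 kept it.

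Mt3 belongs to the rule that chose these genes, so its values in this cohort are a description with no test. It was low in WT muscle, at 0.618, 0.424, 0.316 and 0.692 CPM from 4 to 61 reads per mouse, and reached 24.1, 42.3, 11.2 and 44.6 CPM in the placebo Dnm2 S619L/+ mice. The mutant mean was 59.6 times the WT mean (log2 fold change 5.65 ± 0.52). Of all 6 members, 3 had higher values in every mutant mouse than in any WT mouse, namely Mt1, Mt2 and Mt3, as did 14.3% of all genes. This count includes Mt3, on which the genes were chosen, and is a description only. Replicate 3 was the lowest of the Dnm2 S619L/+ mice for Mt1, Mt2 and Mt3 alike. In that mouse the summed endothelial markers were 434 CPM against 161 to 229 CPM in the other 3 mutants. Of the 5 endothelial markers, 4 passed as lower in mutants than in WT, against 9.81% of all genes. Their part in the result was not tested. Without replicate 3, the log2 fold changes of Mt1, Mt2 and Mt3 were 2.98, 4.76 and 5.92. Tendon markers passed as higher in 3 of 5 cases in the mutants (summed level 256 to 486 CPM against 47.4 to 242 CPM), and 1 of 6 macrophage markers did (55.5 to 152 CPM against 44.2 to 73.7 CPM, lowest of the mutants in replicate 3). Of all genes, 12.1% passed as higher. The summed adipocyte markers were 563 CPM in replicate 3 and 147 to 228 CPM in the other mutants. The part of these cell types was not tested either.

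**Figure D1:**
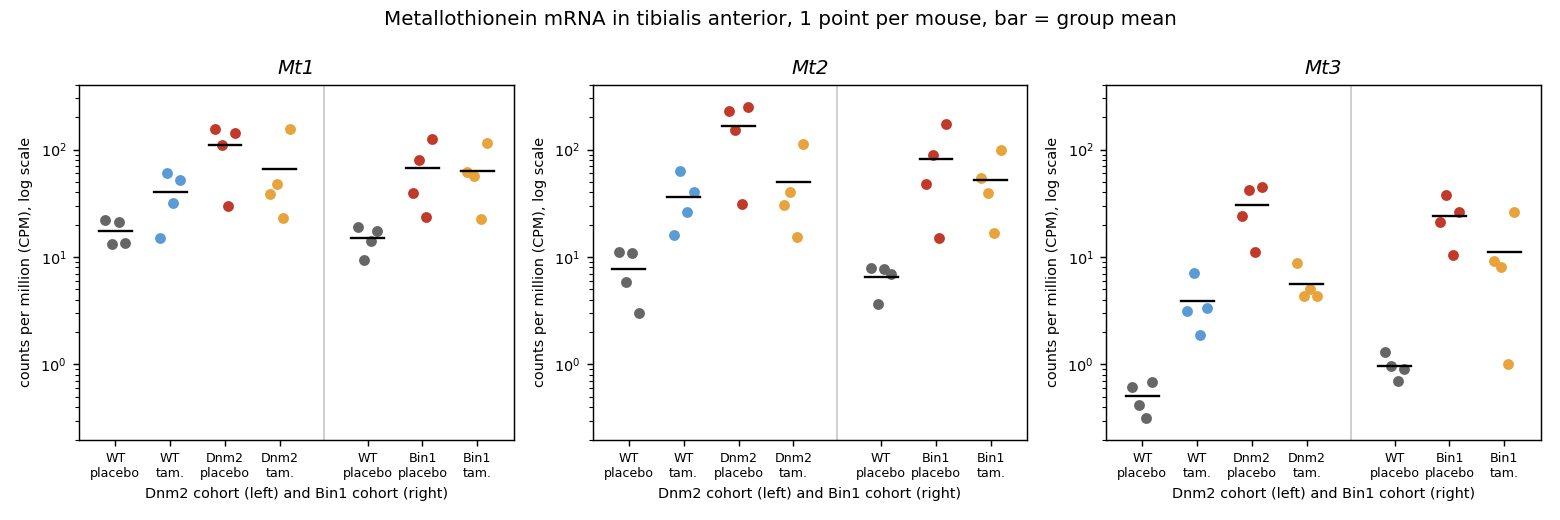
Level of Mt1, Mt2 and Mt3 in each of 28 mice (CPM, log scale) by group, with the Dnm2 cohort left and the Bin1 cohort right of the grey line, 1 point per mouse and a bar for the group mean. Mt3 lies between 0.316 and 0.692 CPM in the WT mice of the Dnm2 cohort and between 11.2 and 44.6 CPM in the untreated Dnm2 S619L/+ mice, with both tamoxifen groups of that cohort in between.

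The regulator and both transporters did not pass the test with all mice and TMM scaling. Mtf1 was 22.7, 17.2, 18.2 and 19.0 CPM in Dnm2 S619L/+ mice and 25.8, 24.3, 24.7 and 19.6 CPM in WT, with overlapping groups (log2 fold change -0.29 ± 0.14, edgeR adjusted p = 0.157). Slc30a1 was 10.7, 15.7, 7.60 and 12.2 CPM against 10.1, 14.1, 11.8 and 10.5 CPM. Both means were 11.6 CPM (log2 fold change -0.01 ± 0.20, edgeR adjusted p = 0.988). Slc39a14 was 38.5, 20.6, 19.4 and 39.8 CPM against 16.8, 20, 26.7 and 17.8 CPM. A pair of mutant mice, replicates 1 and 4, stood above all WT mice and the other pair lay within the WT range (log2 fold change 0.55 ± 0.23, edgeR adjusted p = 0.102). Without mutant replicate 3, Slc39a14 passed the test (0.71, edgeR adjusted p = 0.0333). Scaling by library totals, without TMM factors, moved the median of all genes from 0.02 to 0.29 on the log2 scale and the share of higher genes among those called from 55.2% to 91.1%. The value of Slc30a1 became 0.27 with that scaling, which is below the shifted median, and that of Slc39a14 became 0.85 and passed the test (edgeR adjusted p = 0.0213).

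The Bin1 cohort gave a second diseased muscle in which all 6 members could be tested, since the Mt3 response that chose them was measured in the other cohort. Mt2 and Mt3 were higher in Bin1 mck-/- than in WT mice on placebo. Mt3 was 21.2, 37.9, 10.5 and 26.1 CPM in the Bin1 mck-/- mice and 1.31, 0.974, 0.704 and 0.904 CPM in WT. The groups were far apart, and the mean was 24.6 times the WT mean (log2 fold change 4.53 ± 0.84, edgeR adjusted p = 0.0303). Mt2 was 47.9, 88.2, 15.0 and 173 CPM against 7.83, 3.62, 7.78 and 6.93 CPM. It did not overlap between the groups either, and its log2 fold change was 3.62 ± 0.80 (edgeR adjusted p = 0.0490). Mt1 was 39.2, 80.5, 23.5 and 126 CPM against 19.1, 9.43, 14.0 and 17.5 CPM. Its groups did not overlap, but the log2 fold change of 2.16 ± 0.60 missed the threshold (edgeR adjusted p = 0.0887).

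In this cohort 2 of 6 members passed as higher and 0 as lower, against 1.99% and 0.627% of all genes (388 genes in all, with a range from 18 without WT replicate 8 to 759 without tamoxifen Bin1 mck-/- replicate 2 when 1 mouse was left out), and 3 of 6 did not overlap in the higher direction, against 9.09% of all genes. The median over the 6 was 1.31, against 0.00795 over all genes. DESeq2 called Mt1 as well (adjusted p = 0.00469), and without a filter on low counts Mt2 lost its call (edgeR adjusted p = 0.0623). The edgeR calls were close to the threshold. Mt2 lost its call in 8 of 12 fits that left out 1 mouse, namely Bin1 mck-/- placebo replicates 1, 2 and 4, tamoxifen replicate 1 and all 4 WT mice, with adjusted p between 0.0657 and 0.150. Mt3 lost its call in 7 of 12, which are the same mice without tamoxifen replicate 1, with adjusted p between 0.0595 and 0.113, while its log2 fold change stayed between 4.21 and 4.76 over all 12 fits. As in the other model, replicate 3 was the lowest Bin1 mck-/- mouse for all 3 metallothioneins. Without it, the log2 fold changes of Mt1, Mt2 and Mt3 were 2.43, 3.95 and 4.76, and Mt1 passed the test (edgeR adjusted p = 0.0439). Of the macrophage and of the adipocyte markers that could be tested, 3 of 6 each passed as higher, against 1.99% of all genes. The macrophage sum was 85.6 to 182 CPM in Bin1 mck-/- against 31.4 to 46.0 CPM in WT. The adipocyte sum overlapped, at 237 to 402 CPM against 245 to 273 CPM. Some adipocyte markers had few reads in WT. Median counts of Plin1, Cidec and Retn were 9, 9 and 6.5 there, against 117, 188 and 102.5 in Bin1 mck-/-. The adipocyte count is therefore not read as a result. The part of either cell type in the metallothionein levels was not tested.

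Mtf1, Slc30a1 and Slc39a14 did not pass the test in Bin1 mck-/- mice. Mtf1 was 25.1, 21.8, 23.5 and 21.6 CPM against 28.1, 29.5, 24.8 and 24.5 CPM in WT (log2 fold change -0.21 ± 0.14, edgeR adjusted p = 0.414). Slc30a1 was 7.46, 9.08, 8.36 and 14.1 CPM against 7.89, 7.66, 6.08 and 7.11 CPM. A single Bin1 mck-/- mouse, replicate 4, was well above the rest (0.44 ± 0.19, edgeR adjusted p = 0.199), and it was also the highest for Mt1 and Mt2. Slc39a14 was 17.5, 27.0, 18.3 and 30.1 CPM against 18.8, 14.9, 18.1 and 16.1 CPM, with overlapping groups (0.45 ± 0.17, edgeR adjusted p = 0.146). A p that misses the threshold does not show that levels were equal.

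Tamoxifen, a ligand of the estrogen receptor, was compared with placebo in WT and in Dnm2 S619L/+ mice of the Dnm2 cohort. The rule that chose the members used this contrast, so the values are a description with no test. In WT mice, all 3 metallothioneins had higher means on tamoxifen. Mt3 was 3.14, 7.11, 1.88 and 3.35 CPM on tamoxifen, each above every placebo WT mouse, and the ratio of means was 7.54 (log2 fold change 2.70 ± 0.48). Mt2 was 16.2, 62.9, 26.3 and 40.0 CPM, also above every placebo mouse (2.24 ± 0.69). Mt1 was 15.0, 61.0, 32.1 and 52.1 CPM, and its lowest mouse lay within the placebo range (1.21 ± 0.59). So 2 of 6 members, Mt2 and Mt3, did not overlap in the higher direction, where 17.6% of all genes did the same. The genes were chosen on Mt3 in this contrast, so the count is a description only. By the test over all genes, 15.8% passed as higher and 11.9% as lower in this contrast. Scaling by library totals moved the median of all genes from -0.04 to 0.24 and the share of higher genes among those called from 57.1% to 92%.

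Mtf1 on tamoxifen was 21.3, 16.7, 26.2 and 17.6 CPM in WT, overlapping with placebo (log2 fold change -0.21 ± 0.14). Slc30a1 was 12.8, 10.9, 9.75 and 14.6 CPM, which spans the placebo values (0.05 ± 0.20). Slc39a14 was 28.6, 33.7, 29.2 and 24.1 CPM, so that 3 mice were above all placebo mice and the fourth below the highest of them (0.51 ± 0.23). The bone marker sum in these 4 tamoxifen mice was 1400, 1700, 508 and 782 CPM in the same order. Tendon and macrophage markers moved as well, 5 of 5 and 4 of 6 passing as higher, against 15.8% of all genes. The part of these cell types in the member values was not tested. The mouse with the highest bone sum, replicate 2, also had the highest Mt1, Mt2, Mt3 and Slc39a14. Replicate 1, with the next highest bone sum (1400 CPM), had the lowest Mt1 (15.0 CPM) and Mt2 (16.2 CPM) of these mice.

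In Dnm2 S619L/+ mice the metallothionein means were lower on tamoxifen than on placebo. Mt3 was 8.89, 4.38, 5.05 and 4.32 CPM on tamoxifen against the placebo values of 11.2 to 44.6 CPM given above. Every treated mouse was below every untreated one, and the ratio of means was 0.185 (log2 fold change -2.42 ± 0.43). The treated mutants nevertheless all remained above the placebo WT mice, whose highest value was 0.692 CPM. Mt3 was the 1 member of 6 without overlap in the lower direction, as 6.37% of all genes were, while 5.22% of all genes passed as higher and 3.05% as lower in this contrast. The genes were chosen on Mt3 in this contrast, so that count is a description only. Mt2 was 30.5, 40.6, 15.4 and 112 CPM (-1.73 ± 0.66) and Mt1 was 38.4, 47.5, 23.0 and 154 CPM (-0.74 ± 0.57), both overlapping with placebo. Replicate 4 held the highest Mt1 and Mt2 of the treated mutants, and the lowest Mt3.

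That mouse had a bone marker sum of 54.7 CPM, within the range of placebo WT mice, whereas the other 3 treated mutants had 351, 760 and 1130 CPM. The part of bone tissue in the metallothionein values was not tested. Without this mouse, the log2 fold change of Mt1 was -1.60 and that of Mt2 -2.51. Mtf1 was 18.1, 18.1, 16.4 and 21.8 CPM (-0.05 ± 0.14), Slc30a1 7.94, 10.6, 10.9 and 12.2 CPM (-0.15 ± 0.20) and Slc39a14 27.3, 39.9, 26.7 and 26.2 CPM (0.02 ± 0.23). These 3 genes overlapped with the placebo mutants throughout. The Xist classes were unequal between these groups, and their part in the Mt3 values was not tested. The effects in WT and in Dnm2 S619L/+ mice share no mice, but their opposite signs chose these genes and were therefore not tested here.

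**Figure D2:**
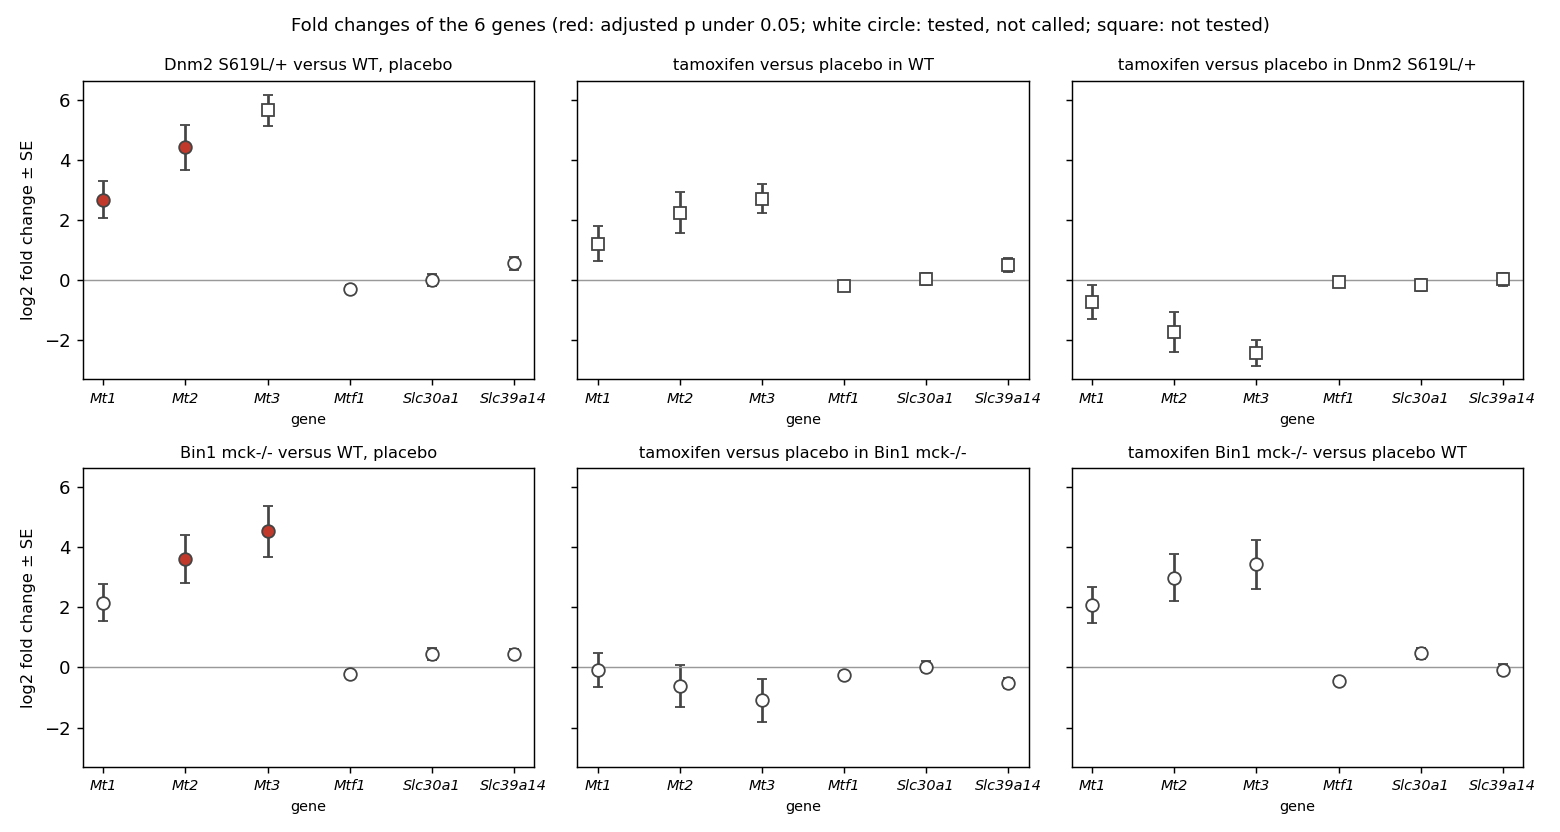
Log2 fold change ± SE of the 6 genes in 6 comparisons, with red circles for genes that passed the test, white circles for genes that did not and squares for values given without a test. The metallothioneins lie above 0 in both placebo disease comparisons (2.16 to 5.65), above 0 under tamoxifen in WT and below 0 under tamoxifen in Dnm2 S619L/+, while the other genes stay within 0.55 of 0.

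Tamoxifen could be tested on all 6 members in Bin1 mck-/- mice. Mt3 was 9.24, 8.01, 1.01 and 26.3 CPM on tamoxifen, with 3 mice below every placebo Bin1 mck-/- mouse and replicate 4 within their range. The log2 fold change was -1.10 ± 0.71 (edgeR adjusted p = 0.414). Mt2 was 54.2, 39.4, 16.6 and 100 CPM (-0.62 ± 0.71, edgeR adjusted p = 0.666) and Mt1 was 61.4, 56.5, 22.5 and 115 CPM (-0.08 ± 0.57, edgeR adjusted p = 0.956). Both stayed within the range of the placebo mice or close to it. With library totals, 21% of the calls over all genes were higher in this comparison, against 48.5% with TMM. None of the 6 members passed with edgeR (0 higher and 0 lower, against 1.52% and 1.61% of all genes), and DESeq2 also called 0. The median over the 6 was -0.39, against -0.000659 over all genes. At an unadjusted p under 0.05 there was 1 of 6 members, the importer Slc39a14, and 20.7% of all genes, so this count is no more than the share over all genes. Slc39a14 was 14.9, 18.2, 14.0 and 17.4 CPM on tamoxifen against 17.5, 27.0, 18.3 and 30.1 CPM on placebo (-0.52 ± 0.17, edgeR unadjusted p = 0.00716, edgeR adjusted p = 0.0972). The treated mice overlapped with placebo only through the lowest placebo mouse.

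Mtf1 was 16.8, 15.4, 25.0 and 20.2 CPM in treated Bin1 mck-/- mice (-0.25 ± 0.14, edgeR adjusted p = 0.318) and Slc30a1 was 9.89, 11, 8.46 and 10.5 CPM (0.03 ± 0.19, edgeR adjusted p = 0.946). Replicate 3 held the lowest of the treated values for Mt1, Mt2 and Mt3. Replicate 2, the one treated mouse with bone markers, lay between the others for all 3 metallothioneins. In the glia list 2 of 6 tested markers passed as lower under tamoxifen, against 1.61% of all genes. The summed level of the list was 26.4 to 37.3 CPM against 48.1 to 96.8 CPM, and its part was not tested.

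A further comparison set treated Bin1 mck-/- mice against placebo WT mice. The metallothionein means were still above WT, with log2 fold changes of 2.08 ± 0.60 for Mt1, 2.99 ± 0.78 for Mt2 and 3.43 ± 0.82 for Mt3. None passed with edgeR (adjusted p between 0.101 and 0.160), and 0.465% of all genes passed as higher and 0.384% as lower in this comparison. At an unadjusted p under 0.05, 5 of the 6 members were counted, all except Slc39a14, against 14.9% of all genes, and DESeq2 called Mt1, Mt2 and Mt3. The median over the 6 was 1.27, against 0.03 over all genes. Mt1, Mt2 and Slc30a1 did not overlap in the higher direction, which makes 3 of 6 members against 3.68% of all genes. Mt3 overlapped through replicate 3, at 1.01 CPM against a WT maximum of 1.31 CPM, and without that mouse Mt3 (3.8, edgeR adjusted p = 0.0123) and Mtf1 (-0.61, edgeR adjusted p = 0.0263) passed the test. With all mice, Mtf1 had a log2 fold change of -0.46 ± 0.14 (edgeR adjusted p = 0.132), Slc30a1 0.47 ± 0.19 (0.261) and Slc39a14 -0.07 ± 0.17 (0.881). The comparison shares its WT mice with that of placebo Bin1 mck-/- mice and its treated mice with the tamoxifen comparison.

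**Figure D3:**
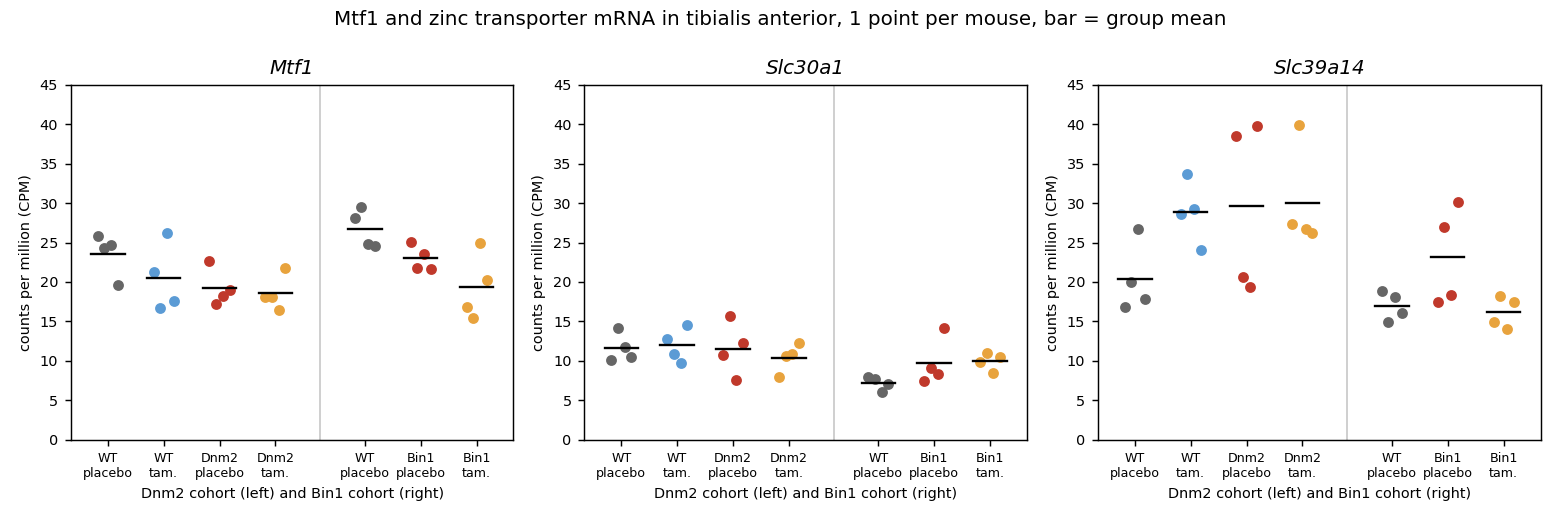
Level of Mtf1, Slc30a1 and Slc39a14 in each of 28 mice (CPM, linear axis from 0) by group, 1 point per mouse and a bar for the group mean. The groups overlap in nearly all comparisons, and the span from 6.08 CPM (Slc30a1) to 39.9 CPM (Slc39a14) over all mice is narrow beside that of the metallothioneins.

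Within a mouse, Mt2 and Mt1 kept close company and Mt3 did not. The ratio of Mt2 to Mt1 CPM was 0.223 to 0.519 in the placebo WT mice of the Dnm2 cohort and 0.384 to 0.556 in those of the Bin1 cohort. It was 1.03 to 1.72 in placebo Dnm2 S619L/+ mice and 0.638 to 1.37 in placebo Bin1 mck-/- mice. In these data Mt2 was therefore the stronger of the 2 in every placebo Dnm2 S619L/+ mouse and the weaker in every WT mouse on placebo, in CPM and without regard to transcript length. On tamoxifen the ratio was 0.768 to 1.08 in WT, 0.670 to 0.855 in Dnm2 S619L/+ and 0.697 to 0.883 in Bin1 mck-/- mice. Mt3 as a percent of Mt1 was 1.5 to 5.16 in placebo WT mice of the Dnm2 cohort, 5.86 to 20.9 in treated WT, 15.4 to 38.1 in placebo and 2.81 to 23.2 in treated Dnm2 S619L/+ mice. In the Bin1 cohort it was 5.03 to 10.3 in WT, 20.7 to 54.1 in placebo and 4.49 to 22.9 in treated Bin1 mck-/- mice. These ratios were looked at after the values were known and carry no test. The longest identical stretch between the main transcripts was 20 bases for Mt1 and Mt2, 27 bases for Mt1 and Mt3 and 20 bases for Mt2 and Mt3, and reads that fall wholly within such a stretch cannot be assigned by sequence.

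**Figure D4:**
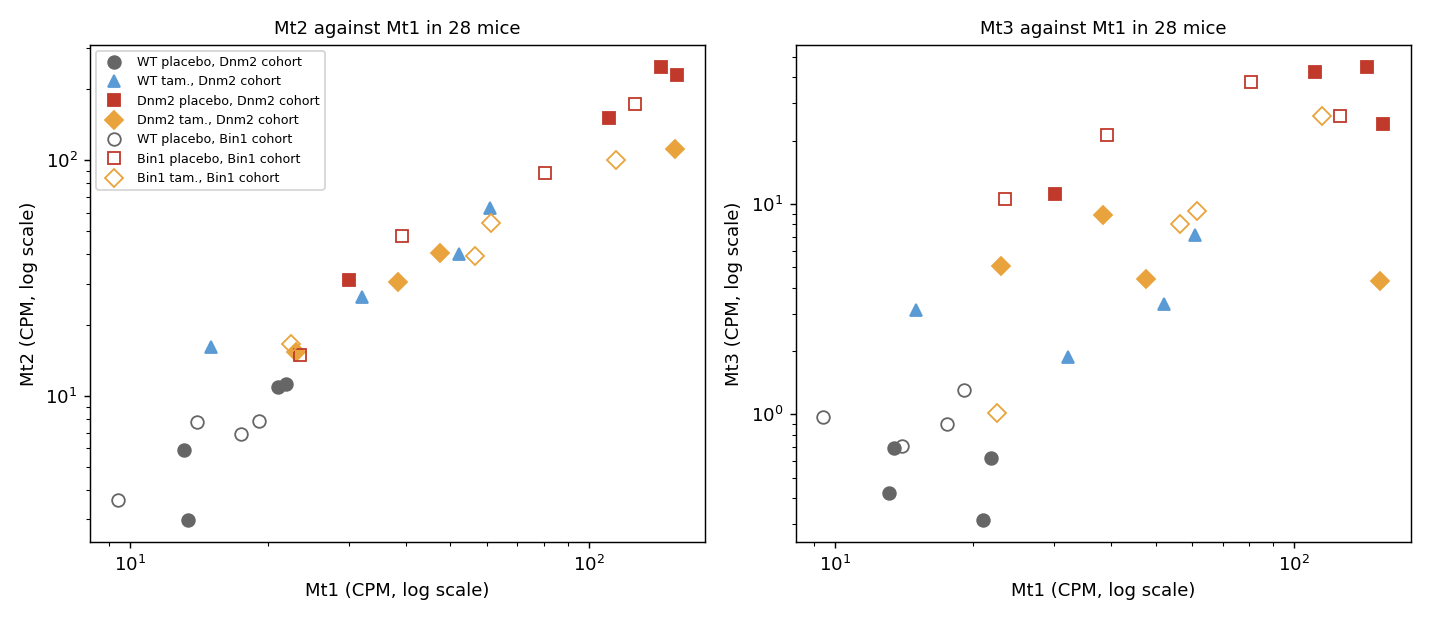
Mt2 (left) and Mt3 (right) against Mt1 in each of 28 mice (CPM, log scales), filled symbols for the Dnm2 cohort and open symbols for the Bin1 cohort. Mt2 follows Mt1 closely over all groups. At a like Mt1 level, Mt3 was 4.32 CPM in treated Dnm2 S619L/+ replicate 4 (Mt1 154 CPM) and 24.1 CPM in placebo replicate 1 (Mt1 156 CPM). Mt3 as a percent of Mt1 overlapped between these groups, at 2.81 to 23.2 in treated and 15.4 to 38.1 in placebo mutants.

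Across groups, the order of the mean levels was the same for Mt1, Mt2 and Mt3 within each cohort. In the Dnm2 cohort it rose from placebo WT (Mt2 7.76 CPM, Mt3 0.513 CPM) through treated WT (36.4 and 3.87 CPM) and treated Dnm2 S619L/+ (49.7 and 5.66 CPM) to placebo Dnm2 S619L/+ mice (165 and 30.6 CPM). Mt1 rose in the same order, at 17.4, 40, 65.8 and 110 CPM. The treated WT and treated mutant groups, neighbours in that order, overlapped for all 3 genes. In the Bin1 cohort the order was WT (6.54 and 0.974 CPM), treated (52.7 and 11.1 CPM) and placebo Bin1 mck-/- mice (81.1 and 23.9 CPM), and the latter groups overlapped. Mt1 stood at 15, 63.7 and 67.2 CPM in that order, with the latter groups overlapping too. Per kilobase of annotated exon, Mt1 (14.0 CPM per kb) and Mt2 (13.2) led in placebo WT mice of the Dnm2 cohort, Mtf1 (2.65), Slc30a1 (2.21) and Slc39a14 (1.92) followed, and Mt3 (0.481) was last. In placebo Dnm2 S619L/+ mice, Mt2 (281 CPM per kb), Mt1 (88.3) and Mt3 (28.7) led, ahead of Slc39a14 (2.81), Slc30a1 (2.21) and Mtf1 (2.17). The exon length pools all annotated transcripts of a gene and was 1246 bases for Mt1, longer than its main transcript of 549 bases, so the order of Mt1 and Mt2 per length is uncertain.

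The genes whose log2 CPM followed Mt1 most closely over the 16 mice of the Dnm2 cohort were Mt2 (Pearson r = 0.960), Bbs2 (0.907), Tgm2 (0.902), Adprhl2 (0.892) and Slc35e4 (0.870). Over the 12 mice of the Bin1 cohort they were Mt2 (r = 0.981), Mustn1 (0.976), Eid1 (0.965), Serpinb6a (0.945) and Myf6 (0.938). Mt2 was thus first for Mt1 in both cohorts and no other gene appeared in both lists. For Mt3 they were Map1a (0.962), Anxa4 (0.962), Armh4 (0.959), Mpp1 (0.958) and Hivep3 (0.954) over 16 mice, and Nfkb2 (0.966), Tspo (0.956), Msln (0.955), Hp (0.955) and Plp2 (0.948) over 12. No gene was shared between these lists of 5 either, and neither Mt1 nor Mt2 was among them. The mice fall into groups that differ in level, so these are descriptions over pooled groups and carry no p.

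The other zinc transporters were read from lists of the SLC30 exporters and the SLC39 importers. In placebo Dnm2 S619L/+ mice, 12.1% of all genes passed as higher and 9.81% as lower. Of 6 tested SLC30 genes, 0 passed as higher and 2 as lower (median log2 fold change 0.01, against 0.02 over all genes). These were Slc30a9, a mitochondrial zinc transporter, at 89.8 ± 4.72 against 114 ± 5.00 CPM (log2 fold change -0.34 ± 0.09, edgeR adjusted p = 0.0155), and Slc30a2, a vesicular one. Slc30a2 was 1.94, 15.9, 21.7 and 2.61 CPM in WT and 1.78 to 4.12 CPM in the mutants (-1.99 ± 0.60, edgeR adjusted p = 0.0280), so that WT replicates 2 and 3 carried its difference. Of 11 SLC39 genes, 1 passed as higher and 0 as lower (median 0.11). It was Slc39a1, a plasma membrane importer (0.38 ± 0.13, edgeR adjusted p = 0.0496). The SLC39 count stayed at 1 in 10 of 26 other fits and ran from 0 to 4.

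Under tamoxifen in WT mice, 5 of 11 SLC39 genes passed as higher and 0 as lower (median log2 fold change 0.45, against -0.04 over all genes), where 15.8% of all genes passed as higher and 11.9% as lower. Slc39a6 was 12.3, 13.7, 8.29 and 8.28 CPM on tamoxifen and 2.55 to 3.33 CPM on placebo (1.81 ± 0.27, edgeR adjusted p = 0.000404). Slc39a13, which releases zinc from intracellular stores and is known from connective tissue, was 44.1, 55.9, 35.5 and 47.6 CPM against 24.2 to 27.9 CPM (0.83 ± 0.14, edgeR adjusted p = 0.000692), and Slc39a1 rose as well (0.59 ± 0.13, edgeR adjusted p = 0.00399). Of 6 SLC30 genes, 2 passed as higher and 2 as lower (median 0.17). Slc30a7, which loads zinc into the Golgi, was 21.5, 22.4, 17.6 and 16.8 CPM against 7.18 to 8.56 CPM (1.31 ± 0.23, edgeR adjusted p = 0.000920). Slc30a5, also of the early secretory pathway, rose too (0.62 ± 0.12, edgeR adjusted p = 0.00138). Slc30a2 passed as lower (-2.16 ± 0.60, edgeR adjusted p = 0.0153), again through placebo WT replicates 2 and 3, with overlapping groups. The bone marker sum was 508 to 1700 CPM in these treated WT mice against 31.5 to 60 CPM on placebo. Their tendon marker sum was 709 to 1650 CPM against 47.4 to 242 CPM. The part of these tissues in the transporter values was not tested.

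In Dnm2 S619L/+ mice 1 gene of each list passed as higher under tamoxifen and 0 as lower, against 5.22% and 3.05% of all genes. They were Slc39a6 (1 ± 0.27, edgeR adjusted p = 0.0326) and Slc30a7 (0.75 ± 0.22, edgeR adjusted p = 0.0499). Both counts depended on the processing. Over 26 other fits the SLC30 count stayed at 1 in 3 and the SLC39 count in 13. The lowest count was 0 for each list. Slc39a6 was 7.70, 10.1, 11.2 and 3.83 CPM on tamoxifen and Slc30a7 was 11.9, 19.9, 21.4 and 8.64 CPM. In both genes replicate 4, the treated mutant with the low bone marker sum, lay within the placebo range (3.54 to 4.75 CPM and 7.74 to 10.8 CPM). The part of bone tissue in these values was not tested. In the Bin1 cohort, 0 of 11 SLC39 genes passed in any of the 3 comparisons. Per comparison and direction, 0.384% to 1.99% of all genes passed there. Of 7 SLC30 genes, the only calls were those of Slc30a3, a transporter of synaptic vesicles, in placebo and in treated Bin1 mck-/- mice against WT. This gene passed the filter on low counts only through the Bin1 mck-/- mice, so its calls are not read as a result. Its reads were few, 6, 29, 8 and 7 in placebo and 38, 52, 2 and 47 in treated Bin1 mck-/- mice, against 1 read in all 4 WT mice together.

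**Figure D5:**
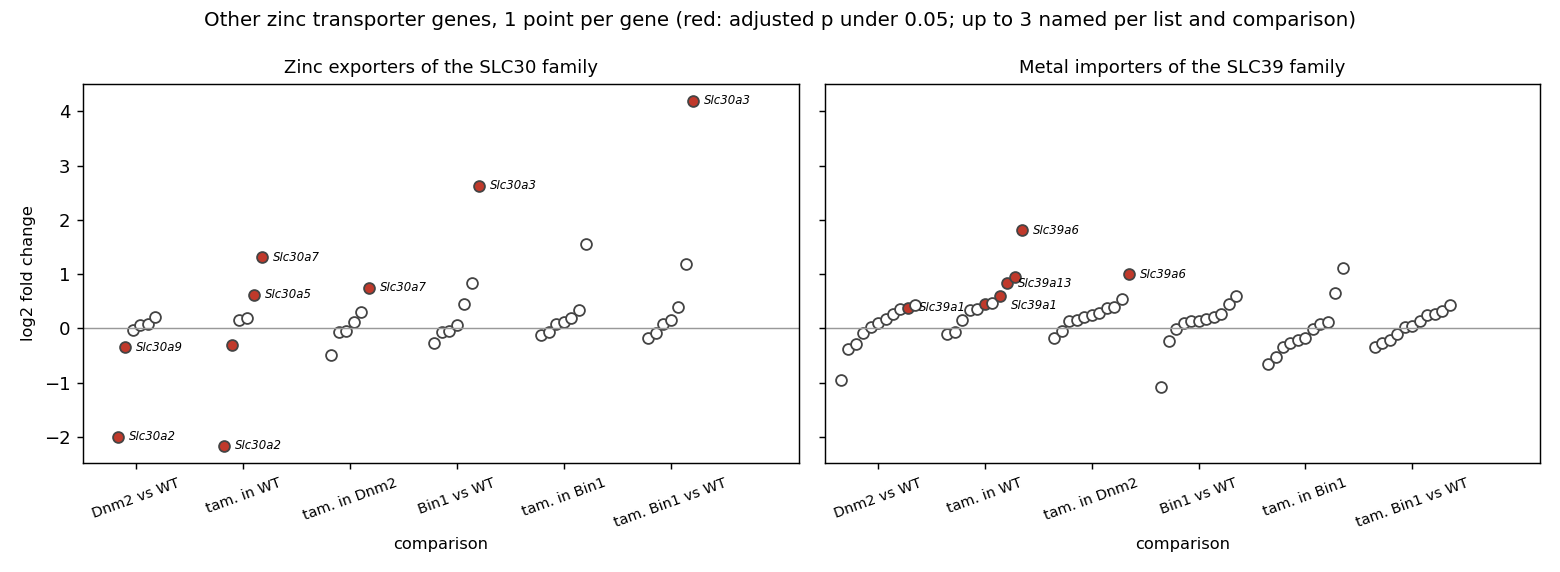
Log2 fold change of the other SLC30 (left) and SLC39 (right) genes in 6 comparisons, 1 point per gene, red where the adjusted p was under 0.05. Most points lie within 1 of 0, and the red points gather under tamoxifen in WT, with Slc39a6 at 1.81 and Slc30a7 at 1.31.

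Copper and iron genes were read because metallothioneins bind copper and SLC39A14 carries iron. In placebo Dnm2 S619L/+ mice, 2 of 9 copper genes passed as higher and 1 as lower (median log2 fold change -0.04), against 12.1% and 9.81% of all genes. The copper chaperones Atox1 (0.95 ± 0.20, edgeR adjusted p = 0.00349) and Cox17 (0.66 ± 0.14, edgeR adjusted p = 0.00385) were higher, and the importer Slc31a1 (-0.38 ± 0.10, edgeR adjusted p = 0.0129) was lower. Cox17 was lower under tamoxifen both in Dnm2 S619L/+ (-0.60 ± 0.14, edgeR adjusted p = 0.0178) and in WT mice (-0.43 ± 0.14, edgeR adjusted p = 0.0309), where Commd1 fell as well (-0.33 ± 0.12, edgeR adjusted p = 0.0440). Of 9 iron genes, Slc40a1, the iron exporter ferroportin, was lower in Dnm2 S619L/+ at 18 ± 5.28 against 46.6 ± 11 CPM (-1.37 ± 0.21, edgeR adjusted p = 0.000405). Hmox1, which degrades heme, was higher under tamoxifen in Dnm2 S619L/+ (0.63 ± 0.15, edgeR adjusted p = 0.0180) and in WT (0.56 ± 0.15, edgeR adjusted p = 0.0107), where the ferritin subunit Ftl1 was higher too (0.86 ± 0.20, edgeR adjusted p = 0.00546). In the Bin1 cohort 0 of 9 copper and 0 of 9 iron genes passed in any comparison. Per comparison and direction, 0.384% to 1.99% of all genes passed in that cohort, so these counts are near that share.

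Metallothionein genes also respond to oxidative stress, glucocorticoids and cytokines, and 3 lists covered these. Of all genes, 12.1% passed as higher in placebo Dnm2 S619L/+ mice and 1.99% in placebo Bin1 mck-/- mice. Of 10 tested NRF2 genes, Srxn1, the sulfiredoxin that repairs oxidised peroxiredoxins, was the 1 that passed as higher in both diseased muscles. It was 68.0 ± 8.76 against 29.8 ± 4.08 CPM in Dnm2 S619L/+ mice (1.19 ± 0.25, edgeR adjusted p = 0.00371) and 51.2 ± 13.4 against 25.6 ± 3.07 CPM in Bin1 mck-/- mice (1 ± 0.19, edgeR adjusted p = 0.0174), without overlap of the groups. Txnrd1, a thioredoxin reductase of the same list, was lower in Dnm2 S619L/+ (-0.43 ± 0.09, edgeR adjusted p = 0.00430), and the list's median was -0.08 there and -0.02 in Bin1 mck-/-. Under tamoxifen, Gclc was higher in WT (0.36 ± 0.10, edgeR adjusted p = 0.0129) and in Dnm2 S619L/+ (0.37 ± 0.10, edgeR adjusted p = 0.0319), Txnrd1 was lower in WT (-0.32 ± 0.09, edgeR adjusted p = 0.0178), and Nqo1 was higher in Bin1 mck-/- mice (0.89 ± 0.21, edgeR adjusted p = 0.0305).

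In placebo Dnm2 S619L/+ mice, 12.1% of all genes passed as higher and 9.81% as lower. Of 12 glucocorticoid genes, 0 passed as higher and 2 as lower there. These were Hsd11b1, which regenerates active glucocorticoid (-1.79 ± 0.35, edgeR adjusted p = 0.00258), and Nr3c1, the glucocorticoid receptor (-0.52 ± 0.16, edgeR adjusted p = 0.0298). Hsd11b1 was also lower under tamoxifen in WT (-1.50 ± 0.34, edgeR adjusted p = 0.00518), and Per1, a clock gene, was higher under tamoxifen in Bin1 mck-/- mice (0.91 ± 0.21, edgeR adjusted p = 0.0365). Of 10 genes of the IL-6 and STAT3 response, 2 passed as higher in placebo Dnm2 S619L/+ mice, against 12.1% of all genes. They were the transcription factors Junb (2.23 ± 0.37, edgeR adjusted p = 0.000906) and Cebpb (1.40 ± 0.48, edgeR adjusted p = 0.0476). This count stayed within 1.5 times its value in 10 of 26 other fits and ran from 1 to 3. Under tamoxifen, Bcl3 (1.79 ± 0.44, edgeR adjusted p = 0.00806) and the receptor Osmr (0.78 ± 0.21, edgeR adjusted p = 0.0129) were higher in WT, and Cebpd (1.81 ± 0.37, edgeR adjusted p = 0.0282) was higher in Bin1 mck-/- mice. In placebo Bin1 mck-/- mice 0 of 10 passed, with a median of 0.43, where 1.99% of all genes passed as higher and 0.627% as lower.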

How the data were processed

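TA muscle RNA of 28 mice was analysed from 2 tables of raw counts per Ensembl gene, 1 per cohort, as deposited by the authors with 1 column per mouse. The submitters' processing notes name bcl2fastq 2.20.0.422, cutadapt 1.10, Bowtie 1.2.2, STAR 2.5.3, HTSeq 0.6.1p1 and the build mm39, without the role of each. Of the Bin1 counts, 4 lines that name no gene were left out. Gene names, exon lengths and promoters came from GENCODE M21 and RefSeq on GRCm38, another build than that of the counts, so coordinates describe the reference only.

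Each cohort was fitted by itself with all its groups in edgeR 4.0.16 (R 4.3.3), with filterByExpr, TMM factors, the robust quasi-likelihood test, a prior count of 2 for log2 fold changes and Benjamini-Hochberg adjustment over all genes tested. SE is the log2 fold change divided by the square root of F. Member values under tamoxifen in WT and in Dnm2 S619L/+ mice, and all Mt3 values of the Dnm2 cohort, carry no p because they bear on the choice of members. The members and gene lists were chosen with earlier results of these data known. Named list genes are the up to 3 with the smallest p among those that passed, and the genes most like Mt1 and Mt3 are the 5 with the highest Pearson r.

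Alternatives were DESeq2 1.42.0, RLE factors, library totals, other filters and prior counts, thinning to equal depth, a replicate block, fits of only the groups compared, and leaving out each mouse. Those with Xist class were chosen after seeing the data. The fits were tested on simulated counts with known changes. Intervals of read counts cover counting error only.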

Additional observations from a re-analysis of the deposited data

Results flagged for a closer look

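Among the 42 sets of 4 values formed by 6 members and 7 groups, 2 held a mouse whose gap to its nearest neighbour exceeded Dixon's 95% critical value for 4 samples, and chance alone marks about 1 in 20 such sets. Mt3 was 8.89 CPM in tamoxifen Dnm2 S619L/+ replicate 1 against 4.32, 4.38 and 5.05 CPM in the other 3 (gap 0.84 of the range). Slc39a14 was 39.9 CPM in tamoxifen Dnm2 S619L/+ replicate 2 against 26.2, 26.7 and 27.3 CPM (gap 0.92 of the range).

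Mt3 was higher in every tamoxifen than in every placebo mouse in WT (log2 fold change 2.70) and lower in every tamoxifen than in every placebo mouse in Dnm2 S619L/+ (-2.42). The difference between these effects was not tested, because it chose the genes.

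Mt4, the fourth metallothionein gene of the cluster, fell under the filter on low counts and entered no comparison. Its reads summed to 58 over the 4 placebo Dnm2 S619L/+ mice (95% Poisson interval 44 to 75) and to 1 over the 4 placebo WT mice (0.0253 to 5.57). In the Bin1 cohort they summed to 26 in placebo Bin1 mck-/- mice (17 to 38.1) and to 0 in WT (upper bound 3.69). In tamoxifen mice there were 6 reads in Dnm2 S619L/+, 7 in Bin1 mck-/- and 0 in WT. Replicate 3, the mouse lowest in Mt1, Mt2 and Mt3 in both placebo disease groups, held 2 of the 58 reads and 0 of the 26.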

How the results depend on the processing

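Over the 840 member values recomputed under the alternatives, 792 were counted as unchanged. A tested value counted if it kept its direction and its side of the threshold. An untested value counted if it moved by less than the SD of log2 CPM between mice of a group, so some of these changed sign. In all 29 changed sign, 12 of them in values given without a test and 0 in values that had passed one. Slc30a1 in Dnm2 S619L/+ versus WT became 0.27 with library totals, 0.00638 with the filter of more than 10 reads in 90% of mice and 0.17 in mice with Xist over 10 CPM, and -0.19 to 0.15 without 1 mouse. In tamoxifen versus placebo in Bin1 mck-/- mice it became -0.15 with library totals and was -0.077 to 0.26 without 1 mouse, where Mt1 was -0.52 to 0.42 and Mt2 -1.14 to 0.0678. Among untested values under tamoxifen, Mtf1 became 0.0728 in WT and 0.0192 in Dnm2 S619L/+ with library totals, and Slc39a14 in Dnm2 S619L/+ became -0.0741 with Xist as a covariate and -0.361 with Xist over 10 CPM only. The others were Slc30a1 in both genotypes and Mtf1 and Slc39a14 in Dnm2 S619L/+ without 1 mouse. With Xist over 10 CPM only, Mt1 in Dnm2 S619L/+ versus WT lost its edgeR call (3.10, adjusted p = 0.0969) and Slc39a14 gained one (1.19, adjusted p = 0.00915).

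Members called in tamoxifen Bin1 mck-/- versus placebo WT were 3 with DESeq2, and in Bin1 mck-/- versus WT 1 without a filter. Without 1 mouse they were 2 to 3 in Dnm2 S619L/+ versus WT, 0 to 3 in Bin1 mck-/- versus WT, and 0 to 2 in tamoxifen Bin1 mck-/- versus WT. Numbers of all genes called moved further. They were 3382, 4273, 1277, 388, 464 and 126 in the order Dnm2 S619L/+ versus WT, tamoxifen in WT, tamoxifen in Dnm2 S619L/+, Bin1 mck-/- versus WT, tamoxifen in Bin1 mck-/- and tamoxifen Bin1 mck-/- versus WT. The first became 5275 with library totals and 1124 with Xist over 10 CPM only, the next 2231 with the latter, and the third 814 without a filter, 30 with only the groups compared, 515 with Xist as a covariate and 79 with Xist over 10 CPM only. The last 3 became 1127, 1128 and 521 with DESeq2, Bin1 mck-/- versus WT 1458 and tamoxifen in Bin1 mck-/- 122 with only the groups compared, and the last 210 without a filter. Without 1 mouse the 6 counts ran from 2034 to 3953, 2769 to 4825, 368 to 2562, 18 to 759, 160 to 1253 and 42 to 266. The causes were not tested. Of 952 counts of list genes, 742 stayed within 1.5 times the reported count.

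Nothing in the labels says that a shared replicate number pairs mice. Correlations of same-numbered mice ran from -0.325 to 0.335 in the Dnm2 cohort (median 0.0263), and of other mice from -0.423 to 0.359 (median 0.00383). In the Bin1 cohort they ran from -0.175 to 0.149 (median -0.0497) and from -0.17 to 0.321 (median 0.00512). The same-numbered pairs were few, 24 and 4, so these values cannot exclude a pairing. With the replicate block, 2 members were called in Dnm2 S619L/+ versus WT and 0 in tamoxifen versus placebo in Bin1 mck-/-, and Mt3 under tamoxifen was 2.71 in WT and -2.25 in Dnm2 S619L/+. Genes called under the block numbered 843 for tamoxifen in Dnm2 S619L/+ and 152 for tamoxifen in Bin1 mck-/-. No paired analysis was possible because the numbers differ for Bin1 mck-/- versus WT and for tamoxifen Bin1 mck-/- versus WT.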

Other observations

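The genes on either side of the metallothionein cluster were read after the values of the cluster were known. In the RefSeq map they are Nudt21, Ogfod1 and Bbs2 on one side and Nup93, Slc12a3 and Herpud1 on the other, and 5 of these 6 could be tested. In placebo Dnm2 S619L/+ versus WT mice, 2 of 5 were higher, Bbs2 (log2 fold change 0.34 ± 0.11, edgeR adjusted p = 0.0451) and the nucleoporin gene Nup93 (0.60 ± 0.14, edgeR adjusted p = 0.00598), where 12.1% of all genes were higher, and both were much smaller than the values of Mt1, Mt2 and Mt3. In placebo Bin1 mck-/- versus WT mice 0 of 5 passed, with 0.17 ± 0.22 for Bbs2 (edgeR adjusted p = 0.712) and 0.13 ± 0.14 for Nup93 (0.646), where 1.99% of all genes were higher. Under tamoxifen 0 of 5 passed in Dnm2 S619L/+ mice and in Bin1 mck-/- mice, and 1 of 5 in WT, Nudt21 (0.57 ± 0.19, edgeR adjusted p = 0.0350). Of all genes, 5.22%, 1.52% and 15.8% were higher under tamoxifen in Dnm2 S619L/+, Bin1 mck-/- and WT mice. The neighbour counts are near these shares.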
